A study of Mus musculus with 2 samples.

Results

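Proteoglycans are proteins that carry long sulfated sugar chains, the glycosaminoglycans, and 45 mouse genes that encode their core proteins or the enzymes that build the chains were followed here in adult neural stem/progenitor cells (NSPCs). The genes were given by name in a list, which was drawn up with earlier results of these data known, and 41 of the 45 could be read in the count table of 15046 genes. *Chst1*, *Chst15*, *Hs3st1* and *Dse* were not analysed here. The list falls into 8 roles, which are the linkage region, the chondroitin backbone, its modification, the sulfotransferases of keratan sulfate and the HNK-1 epitope, the heparan backbone, its modification, and the cores of the chondroitin sulfate and of the heparan sulfate proteoglycans.

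The cells came from the subventricular zone of male C57/Bl6 mice aged 6 to 8 weeks and were grown with N2, EGF and FGF-2. All belonged to 1 stable retroviral line in which a lipid droplet (LD) coat protein fused to GFP, PLIN2-GFP, is made from the CAG promoter of the virus and not from the *Plin2* locus. According to the methods of the study, the medium also held heparin, itself a glycosaminoglycan. The 25% of cells with the lowest and the 25% with the highest GFP signal, the low and the high PLIN2-GFP NSPCs, were placed 1 per well in 2 plates of 384 wells and sequenced by SORT-seq, which counts the 3′ ends of polyadenylated RNA by unique molecular identifiers (UMIs). No other treatment was given, and no cells without PLIN2-GFP were sequenced, so that the low cells are the only reference. Plate 1 gave 95 low and 84 high cells, and plate 2 gave 72 and 53.

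Chain synthesis starts on a serine of the core protein with a linkage sugar chain, which xylosyltransferases begin. From there, one set of polymerases makes chondroitin chains and another, the exostosins, makes heparan chains. Sulfotransferases then place sulfate groups, and the pattern of sulfate sets which growth factors and receptors bind. In the niche of adult neural stem cells, chondroitin sulfate proteoglycans line the cell surface and matrix, and heparan sulfate presents FGF-2 to its receptors.

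For each plate and category the UMIs of all cells were added up, to 801933 (low) and 1029023 (high) on plate 1 and 857262 and 778022 on plate 2. Levels are given as CPM, the counts scaled to a common total, with TMM factors. Since 1 tag is read per molecule, they were not divided by transcript length. High cells held more UMIs per cell, with medians of 11709 against 7856 on plate 1 and 14729 against 11955 on plate 2. On both plates 59 of the wells, and so their cell barcodes, gave a cell. Of the 32 rows of wells in use, 0 held cells of both categories, so the category and the position on the plate cannot be told apart. As a check of the cell type, all 7 NSPC markers were detected and made up 7841 to 8283 CPM in each sum. *Gfap*, listed here as an astrocyte marker, had 1.5 counts over all cells, whereas *Aldoc* of the same list had 2236. Of the neuron markers, *Map2* had 1632 counts and *Rbfox3* 26, and 4.5 counts belonged to the endothelial marker *Pecam1*. *Olig1* and *Olig2*, transcription factors of the oligodendrocyte lineage, were present with 7962 and 3883 counts. The microglial markers were not analysed here.

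Before the values, the start regions of 5 members on which the results turn are shown. They are those of *Chst2*, which was higher in high cells, and of *Sdc1*, which was higher in S and in G2/M phase. The others are *Ptprz1*, *Ncan* and *Bcan*, 3 of the 4 cores that were lower in both phases. For the remaining one, *Cspg5*, no window was at hand. The letters are those of RefSeq (GRCm38.p6), 250 bases before to 50 bases after its annotated start, 5′ to 3′ on the strand of the gene, and capitals mark the motifs that were found.
Chst2, chr9:95407221-95407520, minus strand: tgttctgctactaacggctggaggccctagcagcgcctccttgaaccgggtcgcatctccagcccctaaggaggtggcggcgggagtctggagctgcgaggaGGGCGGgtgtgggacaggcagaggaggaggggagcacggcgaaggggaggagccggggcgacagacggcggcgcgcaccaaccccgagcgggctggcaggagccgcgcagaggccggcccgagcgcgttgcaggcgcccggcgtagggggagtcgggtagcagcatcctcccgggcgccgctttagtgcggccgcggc
Ptprz1, chr6:22875252-22875551, plus strand: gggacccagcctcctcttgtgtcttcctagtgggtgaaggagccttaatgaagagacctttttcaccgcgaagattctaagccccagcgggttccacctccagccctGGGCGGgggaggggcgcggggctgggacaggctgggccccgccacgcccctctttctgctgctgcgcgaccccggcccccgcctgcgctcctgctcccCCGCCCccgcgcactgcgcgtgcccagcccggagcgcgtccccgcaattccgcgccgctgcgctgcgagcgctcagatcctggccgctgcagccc
Ncan, chr8:70120795-70121094, minus strand: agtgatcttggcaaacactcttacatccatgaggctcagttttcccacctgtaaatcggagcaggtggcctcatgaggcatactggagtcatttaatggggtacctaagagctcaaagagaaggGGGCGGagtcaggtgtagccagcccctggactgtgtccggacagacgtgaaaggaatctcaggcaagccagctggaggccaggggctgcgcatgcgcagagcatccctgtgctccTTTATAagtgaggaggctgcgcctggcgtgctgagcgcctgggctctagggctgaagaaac
Bcan, chr3:88000307-88000606, minus strand: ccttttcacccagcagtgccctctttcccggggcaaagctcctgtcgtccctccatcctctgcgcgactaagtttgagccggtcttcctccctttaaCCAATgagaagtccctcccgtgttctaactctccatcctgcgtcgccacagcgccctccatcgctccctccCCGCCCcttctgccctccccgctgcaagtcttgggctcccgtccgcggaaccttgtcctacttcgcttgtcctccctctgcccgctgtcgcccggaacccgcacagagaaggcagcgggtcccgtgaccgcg
Sdc1, chr12:8771146-8771445, plus strand: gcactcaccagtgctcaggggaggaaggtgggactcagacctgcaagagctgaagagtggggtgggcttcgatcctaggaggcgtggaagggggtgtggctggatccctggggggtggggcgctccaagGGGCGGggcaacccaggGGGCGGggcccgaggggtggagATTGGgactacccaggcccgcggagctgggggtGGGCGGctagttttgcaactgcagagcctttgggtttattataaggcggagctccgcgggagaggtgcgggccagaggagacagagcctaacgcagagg
Searched on both strands were the GC box (GGGCGG), the CCAAT box (CCAAT), the E-box (CACGTG), the cell cycle homology region (TTTGAA), a SOX motif (ACAAAG) and the TATA box (TATAAA). No capitals overlap between motifs. Each of the 5 windows held a GC box, with 1 in *Chst2*, *Ncan* and *Bcan*, 2 in *Ptprz1* and 3 in *Sdc1*. This motif was in 35.7% of all 32851 windows of the same length and in 29 of 41 windows (70.7%) of the 36 members that have one. The CCAAT box stood in the windows of *Bcan* and *Sdc1* and in 37.4% of all windows. The *Ncan* window held TATAAA on the opposite strand, which 13.6% of all windows do on one strand or the other. The E-box, the cell cycle homology region and the SOX motif had no match in these 5 windows and were found in 7.15%, 17.9% and 18.7% of all windows. The windows had a GC content of 73% for *Chst2*, 71.7% for *Ptprz1*, 56.7% for *Ncan*, 64% for *Bcan* and 66.3% for *Sdc1*, and the median of all windows was 52.7%.

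The first comparison asked which members differ between NSPCs with many and with few LDs. *Chst2*, which puts sulfate on the N-acetylglucosamine of keratan sulfate and of related glycans, was higher in high PLIN2-GFP NSPCs, and so was *Cspg5*, the core of neuroglycan C, a transmembrane chondroitin sulfate proteoglycan of the brain. The other 31 tested members did not pass the test. The test was the quasi-likelihood test of edgeR on the 4 sums, blocked by plate, and a gene is called at a Benjamini-Hochberg adjusted p under 0.1. The study also used 0.1, but for Bonferroni corrected p-values of a Wilcoxon test on single cells, so the 2 levels are not alike. Of 8372 genes tested, 0.884% were called higher in high cells, against 2 of 33 members, and 0 members were called lower. The result for *Chst2* was already known from these data when the list was drawn up, so these shares are no test of the list. The median log2 fold change of the tested members was 0.11, and that of all genes tested was 0.00 after rounding. Above 0 lay 19 of the 33 members (57.6%) and 4186 of the 8372 genes. Another 8 members had too few counts for the test, namely *B3gat3*, *Csgalnact1*, *Chsy3*, *Chst3*, *Chst12*, *Glce*, *Vcan* and *Gpc4*, with totals of 5 (*Glce*) to 32 (*Chst12*) counts.

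**Figure D1:**
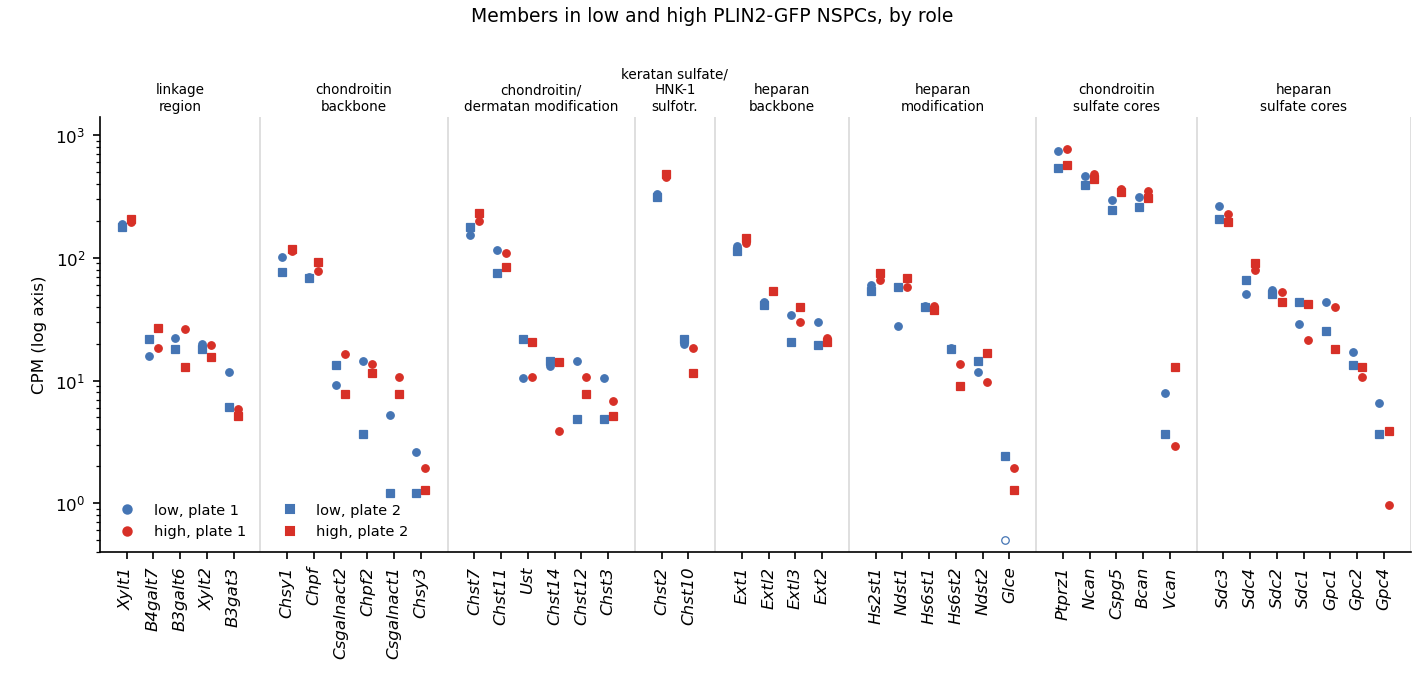
CPM of the 41 members on a log axis in low (blue) and high (red) PLIN2-GFP NSPCs of plate 1 (circles) and plate 2 (squares), ordered by role, with an open symbol at the bottom for *Glce*, which had 0 CPM in 1 sum. The symbols of *Chst2* separate by colour, at 313 and 332 CPM in low and 455 and 485 CPM in high cells.

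*Chst2* (chr9:95399292-95406722, minus strand, GRCm38) was at 332 CPM in low and 455 CPM in high cells of plate 1, and at 313 and 485 CPM on plate 2. Both high sums lay above both low sums. Low cells averaged 323 ± 13.7 CPM and high cells 470 ± 21.02 CPM (SD over n = 2 plates). The log2 fold change was 0.54 (SE 0.11, 1.45-fold, adjusted p = 0.000392), and the plates alone gave 0.45 and 0.63. An unblocked fit had the same value with an adjusted p = 0.718, and DESeq2 gave 0.55 with an adjusted p = 0.9999, so neither made the call. Nor was it made with any 1 of the 4 sums left out, where the value was 0.50 to 0.59 with adjusted p-values from 0.827 to 0.9998. At equal depth, in cells thinned to 5000 UMIs, the log2 fold change was 0.92. Thinning left out 45 shallower cells and kept, on plate 1, 72 of the 95 low and 73 of the 84 high cells, and on plate 2 64 of 72 and 50 of 53, so the cells differ as well as the depth. The thinned low and high cells then held means of 1.25 and 2.37 *Chst2* UMIs per cell on plate 1 and of 1.31 and 2.70 on plate 2. Restricting the cells to G1 phase gave 0.40 with an adjusted p = 0.335. Within each of 3 phases on each plate, high cells were above low cells in 6 of 6 pairs of sums. These pairs split the same 4 sums and are not further replicates. *Chsy1*, *Ext1* and *Hs2st1*, which were not called, and the untested *Csgalnact1* also had 6 of 6, and the share over all genes was not counted.

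*Cspg5* (chr9:110243783-110262576, plus strand) was at 295.5 CPM in low and 363 CPM in high cells of plate 1, and at 246.2 and 346 CPM on plate 2. Again the high sums lay above the low sums. The means were 270.9 ± 34.9 and 354 ± 11.9 CPM (SD, n = 2 plates), and the log2 fold change was 0.39 (SE 0.12, 1.31-fold, adjusted p = 0.0746). High cells were above low cells in 6 of 6 pairs of plate and phase, as in some members that were not called. The call was lost without the block (adjusted p = 0.998), in thinned cells (0.391) and among cells under 20% mitochondrial counts (0.107), where the log2 fold change was 0.39, 0.39 and 0.37. It was also lost in DESeq2 (0.9999), in G1 cells (0.209) and with any 1 sum left out (0.91 to 0.9998), with the value at 0.26 without the low cells of plate 2 and at 0.53 without those of plate 1.

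The categories also differed in phase, with 51.6% of low and 38.1% of high cells in G1 phase on plate 1 and 43.1% and 37.7% on plate 2. The median mitochondrial share was 13.97% in low and 11.93% in high cells of plate 1, and 12.52% and 12.37% on plate 2. Among the astrocyte markers, *Aldoc*, a glycolytic enzyme of astroglia, was higher in high cells as well (log2 fold change 0.38, SE 0.09, adjusted p = 0.00747). The 5 astrocyte markers summed to 456 and 673 CPM in low and 695 and 837 CPM in high sums. This sum restates *Aldoc*, which held 2236 of its 2333 counts. *Gfap*, *Aqp4*, *S100b* and *Gja1* had 1.5, 16, 39 and 40.5 counts in all. *S100b* was not called (0.54, SE 0.50, adjusted p = 0.797). Of the NSPC markers, *Slc1a3* was higher and *Vim* lower in high cells (log2 fold changes 0.24 and -0.22, adjusted p = 0.0825 and 0.04). Whether these measures have a part in the higher *Chst2* and *Cspg5* was not tested.

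Of the enzymes of the linkage region, 0 of 4 tested passed. *Xylt1*, a xylosyltransferase that starts the chain, was at 183.7 ± 7.68 CPM in low and 201.3 ± 9.79 CPM in high cells, with a log2 fold change of 0.13 (SE 0.14). The galactosyltransferase *B4galt7* had the largest value of the role, 0.27 (SE 0.37). The other 2 tested genes lay at -0.12 and -0.05.

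The 4 tested enzymes of the chondroitin backbone all had values above 0, between 0.12 and 0.47, and 0 of them passed. *Chsy1*, a chondroitin synthase, was at 102.4 and 76.4 CPM in the low sums of plates 1 and 2 and at 113.7 and 118.3 CPM in the high sums. Its groups did not overlap, yet the log2 fold change of 0.37 (SE 0.18) had an adjusted p = 0.422. *Chpf*, its polymerizing partner, was at 69.6 and 69.1 CPM in low and 78.7 and 92.6 CPM in high cells, a change of 0.30 (SE 0.21). *Chpf2*, whose locus overlaps another protein-coding gene, had the largest value, 0.47 (SE 0.50), on 36 counts, with -0.09 on plate 1 and 1.63 on plate 2.

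Among the sulfotransferases of chondroitin and dermatan sulfate, *Chst7*, which sulfates N-acetylgalactosamine in chondroitin, stood nearest to a call. It was at 153.7 and 179.5 CPM in the low sums and at 199.3 and 230.1 CPM in the high sums of plates 1 and 2. The log2 fold change was 0.37 (SE 0.14, adjusted p = 0.245) and was the same on both plates to 1 decimal (0.37 and 0.36), and it passed only when the library size replaced the TMM factors (adjusted p = 0.0926). *Chst11*, a chondroitin sulfotransferase that acts on another carbon of the same sugar, was at 116.9 and 75.2 CPM in low and 108.9 and 84.8 CPM in high cells (log2 fold change 0.01, SE 0.18). *Chst14*, the dermatan sulfotransferase, had the largest value of the role, -0.68 (SE 0.49), which was -1.72 on plate 1 and -0.04 on plate 2. The remaining tested member lay at -0.04.

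The partner of *Chst2* in its role, the HNK-1 sulfotransferase *Chst10*, had a log2 fold change of -0.45 (SE 0.39) on 60.5 counts. Both high sums, at 18.5 and 11.6 CPM, lay below both low sums, at 19.7 and 21.8 CPM, but the adjusted p was 0.781.

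Heparan chains are polymerized by exostosins. *Ext1* was at 119.4 ± 7.62 CPM in low and 138.9 ± 10.8 CPM in high cells (log2 fold change 0.21, SE 0.16), and *Extl2*, an exostosin-like transferase that acts on the linkage region, was at 43.3 and 41.2 CPM in low and 53.5 and 53.99 CPM in high cells (0.34, SE 0.26). The other 2 had 0.34 and -0.21, and 0 of these 4 genes passed.

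Of the heparan modifying enzymes, 0 of 5 tested passed. *Ndst1*, an N-deacetylase and N-sulfotransferase of heparan whose locus also overlaps another protein-coding gene, had 0.57 (SE 0.25, adjusted p = 0.336), with 27.6 and 58.2 CPM in the low sums and 57.4 and 68.1 CPM in the high sums of plates 1 and 2, so that the groups overlapped. *Hs2st1*, which sulfates uronic acid in heparan, had 0.31 (SE 0.23). The heparan sulfotransferase *Hs6st2* had the largest value downwards, -0.67 (SE 0.43) and the remaining 2 lay at -0.05 and -0.01.

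Of the 5 chondroitin sulfate cores 4 could be tested, all with values above 0 on both plates. *Ptprz1*, a receptor tyrosine phosphatase that binds pleiotrophin, was at 749 and 537 CPM in the low sums and at 770 and 572 CPM in the high sums of plates 1 and 2. Its plates differed more than its categories, and the log2 fold change was 0.06 (SE 0.09). *Ncan* and *Bcan*, which encode neurocan and brevican, lecticans that bind hyaluronan in the matrix, had 0.11 (SE 0.11) and 0.20 (SE 0.12). Their adjusted p of 0.803 and 0.589 did not pass, and *Cspg5* alone of the cores was called. The lectican *Vcan*, versican, had 21 counts and was not tested.

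Of the heparan sulfate cores 0 of 6 tested passed, and 5 of the 6 values were below 0. *Sdc4*, a syndecan of adhesion sites, was at 51.2 and 65.5 CPM in the low sums and 79.7 and 91.3 CPM in the high sums (log2 fold change 0.55, SE 0.22, adjusted p = 0.233). *Sdc3*, the syndecan of neural cells, was at 265.3 and 208.6 CPM in low and 227.5 and 195.4 CPM in high cells, -0.16 (SE 0.14). *Sdc1* had -0.20 (SE 0.30), and the other 3, a syndecan and 2 glypicans, which a lipid anchors to the membrane, lay between -0.38 and -0.14.

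**Figure D2:**
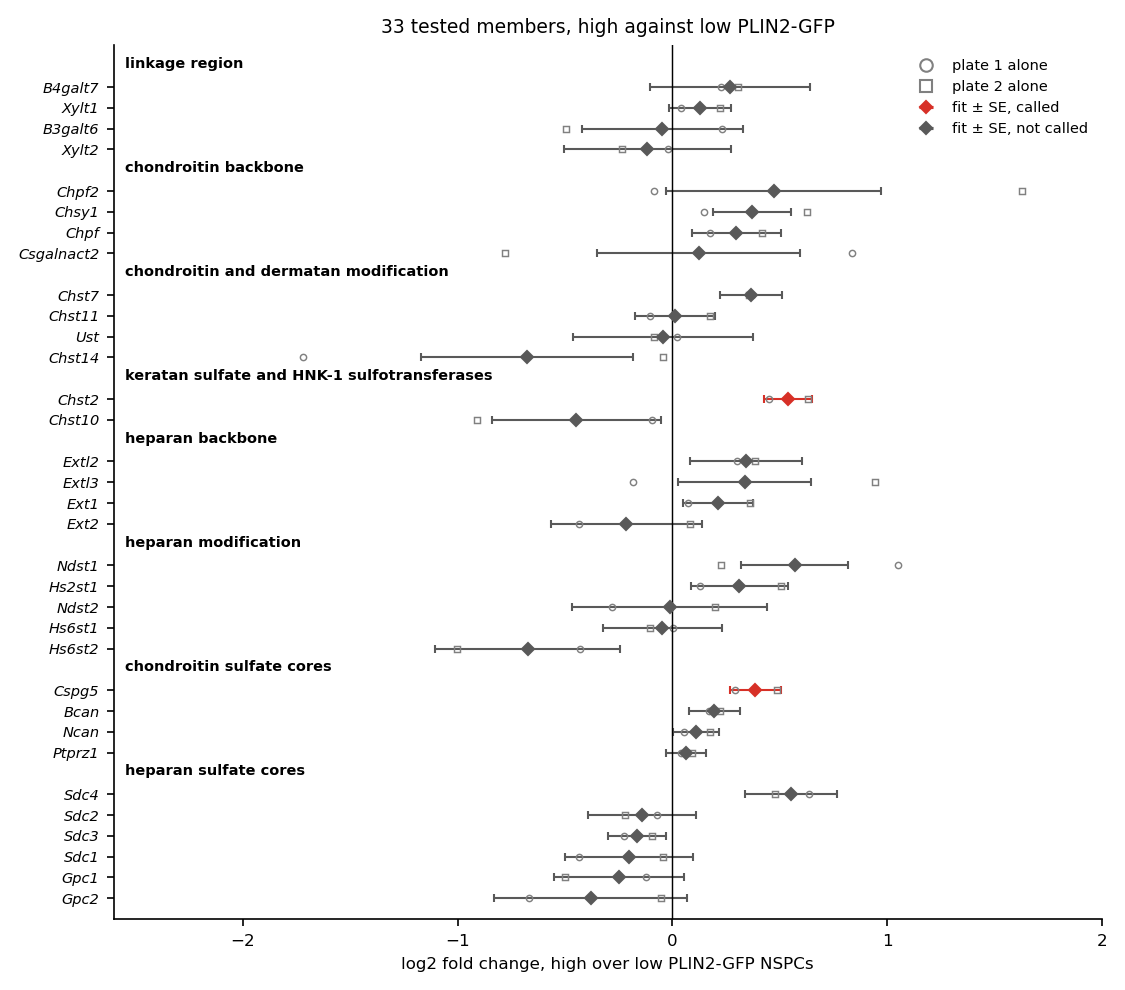
Log2 fold change of high over low PLIN2-GFP NSPCs for the 33 tested members by role, as diamonds with the SE of the fit (red where called), with the values of plate 1 alone (open circles) and plate 2 alone (open squares). *Chst2* at 0.54 and *Cspg5* at 0.39 are the 2 called members, and wide bars mark members with few counts such as *Chpf2* and *Chst14*.

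*Chst2* was then set against the other sulfotransferases and the cores, as a description without a test. Over all cells, 1356 of the 3166 UMIs of the 13 sulfotransferases read here were *Chst2* (42.8%), followed by *Chst7* with 20.5% and *Chst11* with 10.4%. *Chst2* made up 40.1% of these UMIs in low cells of plate 1 (95% exact binomial interval 36.2% to 43.97%) and 45.5% in high cells (42.4% to 48.5%). On plate 2, the shares were 38.2% (34.5% to 41.9%) and 45.5% (42.1% to 48.99%). The share was thus higher in high cells on both plates, with intervals that overlap on plate 1 and not on plate 2, and that cover counting error only. The median log2 fold change of the 10 other tested sulfotransferases was -0.03, and 4 of the 10 lay above 0. Summed over all 12 others, the level was 472 and 488 CPM in low and 546 and 580 CPM in high cells of plates 1 and 2, before TMM scaling. Per UMI of the 12 cores, there were 0.145 and 0.169 UMIs of *Chst2* in low and 0.189 and 0.233 in high cells.

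**Figure D3:**
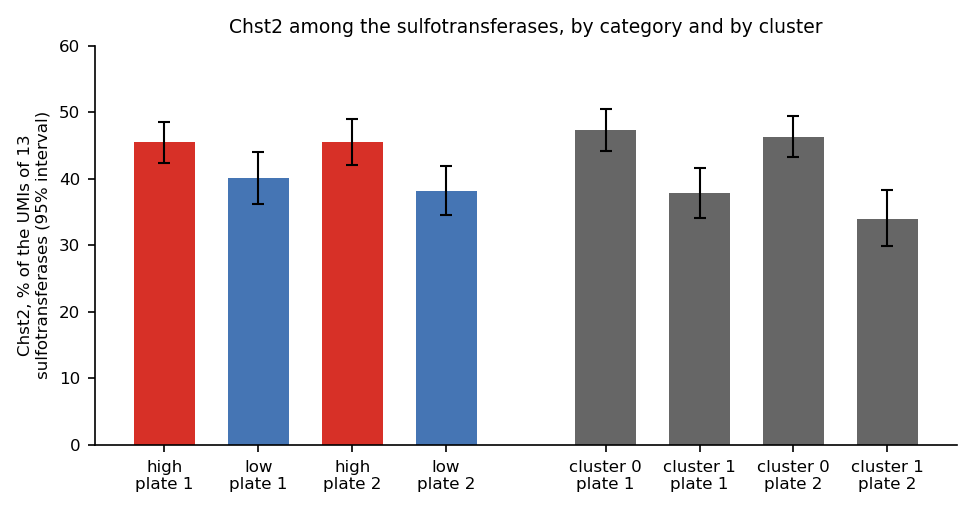
Share of the UMIs of 13 sulfotransferases that are *Chst2*, in percent from 0, with 95% exact binomial intervals, by category (high red, low blue) and by the clusters of the per-cell table (grey) on each plate. High cells were at 45.5% on both plates and low cells at 40.1% and 38.2%, and cluster 0 was at 47.3% and 46.3% against 37.8% and 33.97% in cluster 1.

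The per-cell table also gives 2 clusters, made by the authors on the expression of these same cells with the phase regressed out, so that levels between them are described and not tested. Cluster 0 held 61 high and 31 low cells of plate 1 and 40 and 23 of plate 2, and cluster 1 held 23 high and 64 low cells of plate 1 and 13 and 49 of plate 2. *Chst2* was at 488 CPM in cluster 0 and 291.6 CPM in cluster 1 on plate 1, and at 523 and 226.1 CPM on plate 2. *Cspg5* was at 388 and 259.97 CPM on plate 1, and at 361 and 200.8 CPM on plate 2. Both genes thus differed more between the clusters than between the categories. Within cluster 0, before TMM scaling, *Chst2* was at 486 CPM in low and 502 CPM in high cells of plate 1 and at 489 and 557 CPM on plate 2. In cluster 1, the low and high cells had 247.6 and 354 CPM on plate 1, and 218.2 and 231.9 CPM on plate 2. Before TMM scaling, the high cells had more *Chst2* than the low cells in each cluster and plate. The low cells of cluster 0 lay above the high cells of cluster 1. Over the whole sums of plate 1, TMM scaling moved *Chst2* from 315 to 332 CPM in low cells and left high cells at 455. The small gap in cluster 0 of plate 1 may thus depend on the scaling, and cluster 1 of plate 2 held only 13 high cells. *Cspg5* was at 398 CPM in low and 394 CPM in high cells of cluster 0 on plate 1, and at 329 and 387 CPM on plate 2. In cluster 1 it was at 233.6 and 292.9 CPM on plate 1, and at 195.6 and 197.1 CPM on plate 2, so its high cells were not above its low cells in each cluster and plate. *Xylt1*, *Ndst1* and *Hs2st1* were also higher in cluster 0, with *Xylt1* at 219.3 against 153.7 CPM on plate 1 and 218.3 against 152.96 CPM on plate 2. Of the 33 members tested above, 18 (54.5%) were higher in cluster 0 on both plates and 5 (15.2%) in cluster 1, against 29.7% and 29.8% of the 8372 genes. *Sdc3* was among the 5, at 228.8 against 247.5 CPM on plate 1 and 193.5 against 202.2 CPM on plate 2.

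The second comparison asked how the members vary with the phase of the cell cycle that the authors assigned to each cell. All 4 tested chondroitin sulfate cores were lower in S and in G2/M than in G1 phase, while *Sdc1*, the syndecan of epithelia, was higher in both. Of the enzymes, *Xylt1* and *Ext1* were lower in G2/M phase and *Chst2* was lower in S phase, though not in cells thinned to equal depth. Thinned cells also lost the S phase calls of *Ptprz1* (log2 fold change -0.26, adjusted p = 0.27), *Bcan* (-0.26, 0.48) and *Sdc3* (-0.34, 0.381). They kept those of *Ncan* and *Cspg5* (adjusted p = 0.0392 and 0.0481). In G2/M phase, the call of *Bcan* was lost in thinned cells as well. The counts were summed over plate, category and phase into 12 sums of at least 15 cells, with plate and category as terms, and 5762 genes, among them 21 members, passed the filter on low counts. In S phase, 6 members were called lower and 1 higher, against 7.65% and 9.7% of all genes tested. In G2/M phase, 6 members were called lower and 1 higher, against 10.5% and 11.3% of all genes. The median log2 fold change of the 21 members was -0.10 in S and -0.24 in G2/M phase, beside -0.03 and -0.01 over all genes. The median mitochondrial share of the cells moved with the phase too, at 14.04% and 13.84% in G1, 11.77% and 11.31% in S and 11.94% and 11.85% in G2/M phase on plates 1 and 2, and its part in the differences was not tested.

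*Ptprz1* was at 923, 1071, 667 and 779 CPM in G1 phase (low and high cells of plate 1, then of plate 2). In S phase, the same 4 groups had 747, 745, 575 and 574 CPM, and in G2/M phase 563, 637, 450 and 455 CPM. Every group was lower in S than in G1 phase, and all 4 sums in G2/M phase lay below all 4 in G1 phase. The log2 fold change was -0.38 in S (SE 0.10, adjusted p = 0.00436) and -0.70 in G2/M phase (SE 0.10, 1.63-fold lower, adjusted p = 1.74e-07). It was called in G2/M phase under all 11 alternatives, between -0.76 and -0.57. Cells in G1, S and G2/M phase had medians of 9049, 13560 and 11333 UMIs, and *Ptprz1* itself fell from 8.52 to 6.10 UMIs per cell on plate 1 and from 6.68 to 5.86 on plate 2 between G1 and G2/M phase. In S phase, it was at 7.89 and 9.01 UMIs per cell. Plate 2 alone gave -0.31 in S phase with an adjusted p = 0.291, and plate 1 alone kept the call. Thinned to 5000 UMIs, the cells gave -0.26 in S phase (adjusted p = 0.27), without a call. They then held means of 4.15 *Ptprz1* UMIs in G1 and 3.29 in S phase on plate 1, and 2.93 and 2.80 on plate 2.

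*Cspg5* was at 370, 549, 320 and 417 CPM in G1 phase, in the same order of groups, at 229.3, 298.8, 291.3 and 404 CPM in S phase, and at 276.04, 297.8, 167.5 and 254.2 CPM in G2/M phase. The sums in G2/M phase again lay below those in G1 phase, with the log2 fold change at -0.75 (SE 0.14, 1.69-fold lower, adjusted p = 6.97e-05), called under all 11 alternatives. In S phase it was -0.42 (SE 0.14, adjusted p = 0.0371), but -0.79 on plate 1 alone and -0.07 on plate 2 alone (adjusted p = 0.00453 and 0.896). Per cell, it had 3.89 and 3.38 UMIs in G1, 2.88 and 5.48 in S and 2.89 and 2.67 in G2/M phase on plates 1 and 2, so that on plate 2 the lower CPM in S phase came with more UMIs per cell.

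*Ncan* was at 626, 607, 507 and 490 CPM in G1 phase, in the same order of groups, and at 346, 470, 275.4 and 370 CPM in G2/M phase. It had means of 558 ± 68.9 CPM in G1, 439 ± 64.9 CPM in S and 366 ± 80.5 CPM in G2/M phase (SD, n = 4 sums). Its log2 fold changes were -0.33 (SE 0.12, adjusted p = 0.0632) and -0.61 (SE 0.12, adjusted p = 0.00021). *Bcan* had 377 ± 39.7, 302.2 ± 45.2 and 293.4 ± 49.8 CPM, with -0.33 (SE 0.13, adjusted p = 0.0815) and -0.36 (SE 0.13, adjusted p = 0.0465). The sums of *Ncan* in G2/M phase did not overlap those in G1 phase, whereas those of *Bcan* did. On plates 1 and 2, *Bcan* held 3.38 and 3.33 UMIs per cell in G1, 3.54 and 4.17 in S and 3.24 and 3.51 in G2/M phase. Its lower CPM thus came with more UMIs per cell in S phase, and on plate 2 also in G2/M phase. *Ncan* held 5.30 and 4.65 UMIs per cell in G1, 4.34 and 7.53 in S and 4.28 and 4.13 in G2/M phase. *Bcan* was called in 1 of 11 alternatives in S and in 2 of 11 in G2/M phase, and *Ncan* in 5 and in 10 of 11. On plate 2 alone, *Ncan* had -0.05 in S phase (adjusted p = 0.921), and the calls of *Bcan* were made on neither plate alone, with adjusted p-values of 0.262 to 0.531. Of the 5 markers of oligodendrocyte precursors 3 were read, and *Olig1* and *Olig2* were lower in G2/M phase as well, by log2 fold changes of -0.81 and -0.55. The third, *Cspg4*, itself a chondroitin sulfate core, was not called, with 0.95 in S and 0.50 in G2/M phase (SE 0.42 and 0.45, adjusted p = 0.139 and 0.506). The sum of the 3, nearly all *Olig1* and *Olig2*, was 4049 and 4238 CPM in G1, 3454 and 3469 CPM in S and 2578 and 2657 CPM in G2/M phase. *Aldoc* was lower as well (-0.44 in S and -0.61 in G2/M phase), and the part of these genes in the lower cores was not tested.

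*Sdc1* was at 24.5, 6.11, 27.3 and 13.8 CPM in G1 phase, at 35.3, 34.04, 75.7 and 50.04 CPM in S phase, and at 37.9, 28.7, 33.5 and 66.9 CPM in G2/M phase. Every sum in S and G2/M phase lay above every sum in G1 phase. The log2 fold changes were 1.38 (SE 0.39, 2.61-fold, adjusted p = 0.0123) and 1.13 (SE 0.41, 2.19-fold, adjusted p = 0.0459). Per cell, it had 0.136 and 0.196 UMIs in G1, 0.366 and 0.972 in S and 0.316 and 0.632 in G2/M phase on plates 1 and 2. It was called in 6 of the 9 alternatives that could test it in each phase, and on neither plate alone (adjusted p = 0.102 to 0.349, values 1.13 to 1.56). *Sdc3* went the other way in S phase, with 273.9 ± 29.9 CPM in G1 and 213.9 ± 63.3 CPM in S phase (-0.39, SE 0.15, adjusted p = 0.0863) and 218.97 ± 15.2 CPM in G2/M phase (-0.32, SE 0.15, adjusted p = 0.146). Its call in S phase was made in 1 of 11 alternatives and on neither plate alone, with -0.17 on plate 1 and -0.62 on plate 2. The UMIs per cell of *Sdc3* went from 2.53 in G1 to 2.73 in S phase on plate 1 and from 2.37 to 2.56 on plate 2. The other 3 tested heparan sulfate cores were not called in either phase, with values between -0.23 and 0.22.

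Of the chain enzymes, *Xylt1* was at 215.1 to 242.9 CPM in the 4 sums of G1 phase, and at 146.1, 180.2, 115.4 and 120.4 CPM in those of G2/M phase. The phases did not overlap, and the log2 fold change was -0.70 (SE 0.17, 1.62-fold lower, adjusted p = 0.0016). In S phase it was -0.01 (SE 0.15), and *Xylt1* fell from 1.92 to 1.67 UMIs per cell on plate 1 and from 2.22 to 1.53 on plate 2 between G1 and G2/M phase. *Ext1* had 156.5 ± 16.3 CPM in G1 and 114.7 ± 9.84 CPM in G2/M phase, without overlap (-0.46, SE 0.18, adjusted p = 0.0753), and was called in 2 of 11 alternatives and on neither plate alone (adjusted p = 0.283 and 0.437). The UMIs per cell of *Ext1* went from 1.29 in G1 to 1.09 in G2/M phase on plate 1 and from 1.49 to 1.56 on plate 2. *Xylt1* was called in 9 of 11 alternatives, and on plate 1 alone it had -0.43 with an adjusted p = 0.27.

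*Chst2* was at 389, 540, 394 and 495 CPM in G1, 270.5, 488, 272.4 and 440 CPM in S and 346, 423, 316 and 611 CPM in G2/M phase, for the low and high cells of plate 1 and then of plate 2. The means were 455 ± 75.1 CPM in G1, 368 ± 112.9 CPM in S and 424 ± 132.4 CPM in G2/M phase. The log2 fold change in S phase was -0.32 (SE 0.13, adjusted p = 0.0836), and it was called in 2 of 11 alternatives and on neither plate alone (adjusted p = 0.385 and 0.403). All 4 groups were lower in CPM in S than in G1 phase. In cells thinned to 5000 UMIs the value was -0.03 (adjusted p = 0.938), and the mean was 1.80 *Chst2* UMIs per cell in G1 and 1.97 in S phase on plate 1, and 1.91 and 2.06 on plate 2. The lower level in S phase was therefore not seen at equal depth. In G2/M phase the value was -0.14 (SE 0.12, adjusted p = 0.498). The share of *Chst2* among sulfotransferase UMIs was 45.1% and 43.2% in G1, 41.6% and 35.7% in S, and 42.6% and 49.4% in G2/M phase on plates 1 and 2, so the plates differ in the order of the phases. The remaining 9 tested enzymes, among them *Chst7*, *Chst11*, *Chsy1* and *Ndst1*, were not called in either phase, with values from -0.56 to 0.33.

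**Figure D4:**
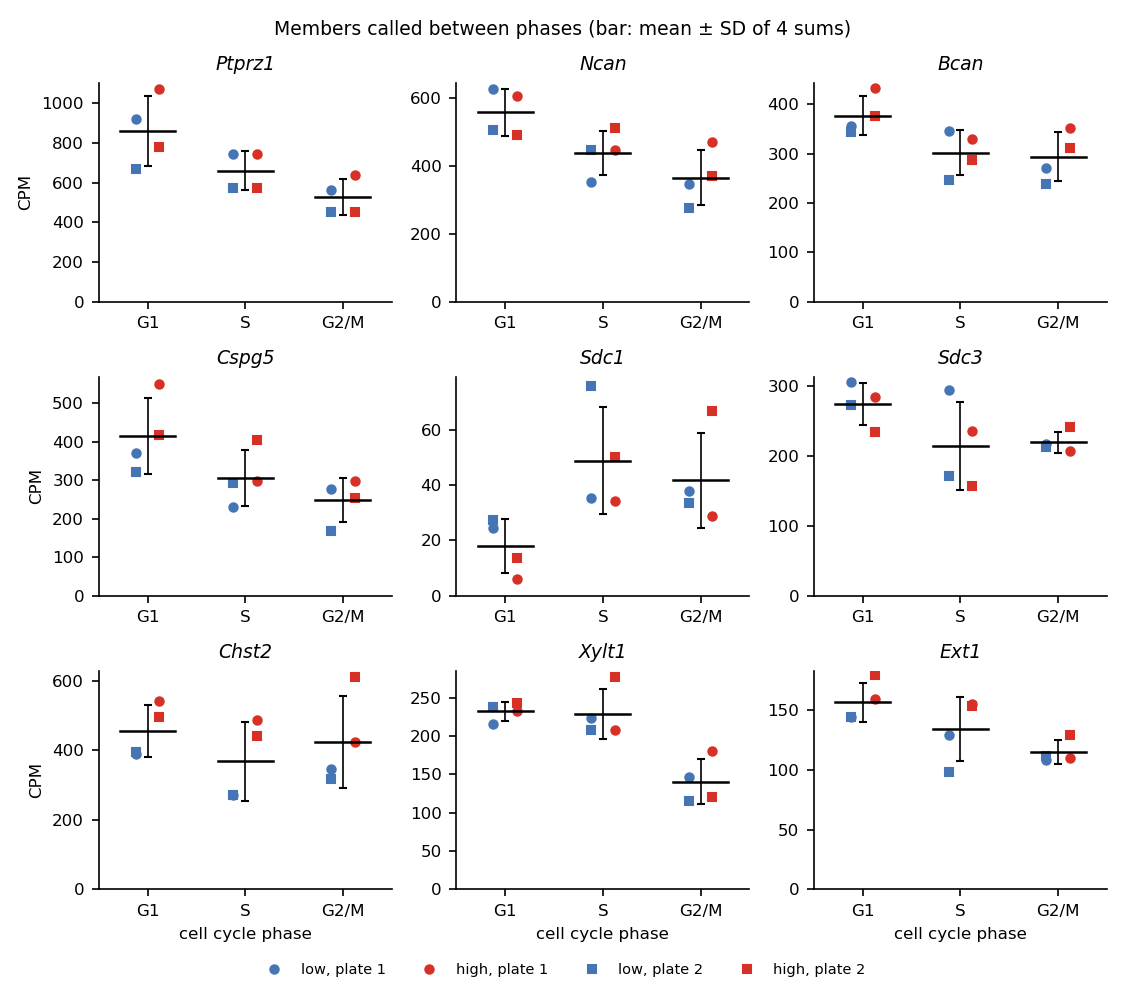
CPM of the 9 members called between phases, in G1, S and G2/M phase, from 0, for low (blue) and high (red) cells of plate 1 (circles) and plate 2 (squares), with the mean and SD of the 4 sums in black. The cores *Ptprz1*, *Ncan* and *Cspg5* step down from G1 to G2/M phase, *Sdc1* steps up from a mean of 17.9 CPM to 48.8 and 41.8 CPM, and in *Chst2* the red symbols lie above the blue ones in each phase and plate.

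The phases of a group are not replicates of independent cultures, and the phases were assigned from other genes of the same cells. The difference between phases was also tested for a dependence on the category, with interaction terms that were added after the data were seen. Of the 21 members, 0 were called for S and 0 for G2/M phase in edgeR, with 0 and 2 members under an unadjusted p of 0.05, so a different phase pattern in high and low cells was not detectable at this depth.

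Outside the list, the genes around the chains were read from 5 further lists of 75 genes, of which 35 could be tested between categories. In high against low cells, 0 of 35 were called by edgeR and 0 of 52 by DESeq2, with 6 and 0 under an unadjusted p of 0.05. Their medians were -0.03 for sulfate and sugar supply, 0.09 for chain editing and breakdown, 0.06 for hyaluronan and its partners, -0.16 for other cores and -0.04 for ligands and receptors. Between phases, 24 could be tested. In S phase 2 were called higher and 2 lower, beside the 9.7% and 7.65% of all genes. In G2/M phase 1 was called higher and 4 lower, beside 11.3% and 10.5%. DESeq2 called 3 of 52 in each phase, beside 465 of 11460 genes in S and 648 of 11460 in G2/M phase. The numbers called are thus near those over all genes. *Ptn*, which encodes pleiotrophin, the ligand of *Ptprz1*, was lower in both, with -0.33 (SE 0.08, adjusted p = 0.00259) and -0.57 (SE 0.08, adjusted p = 2.9e-07). *Sulf2*, an enzyme outside the cell that removes sulfate from heparan, was lower in both, with -0.47 (SE 0.11, adjusted p = 0.00124) and -0.51 (SE 0.11, adjusted p = 0.000267). The receptor phosphatase *Ptprf* and *Aplp2*, of which a splice form carries chondroitin sulfate, were lower in G2/M phase by -0.53 (adjusted p = 0.0204) and -0.28 (adjusted p = 0.0681). *Tnc*, the matrix protein tenascin-C, was higher in S phase, with 0.89 (SE 0.16, adjusted p = 4.27e-05). *Hmmr*, a hyaluronan receptor that also acts on the mitotic spindle, was higher in S (1.54) and G2/M phase (4.08). *Hmmr* belongs to the gene list commonly used to score G2/M phase, so its value restates the assignment. The list of sulfate and sugar supply had 0 of 6 tested genes called in each phase.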

How the data were processed

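Single cells of 1 PLIN2-GFP NSPC line were sequenced by SORT-seq on 2 plates. The authors assigned reads with Salmon alevin to GRCm38, kept cells by mitochondrial percentage and doublet detection, and deposited expected counts (estimated UMI counts) per gene and cell without normalization. Versions and the strand setting are not given in the sources used here. A per-cell table deposited by the authors holds each cell's total expected count, the count of genes detected, the percent of mitochondrial counts, and its category, phase and cluster. Of the values above 0, 87.1% were whole within 1e-06. The 304 columns were joined to the cells by equal total and number of genes, with 0 left unjoined. The table still holds 11 cells at or over 20% mitochondrial counts.

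Counts were summed per plate and category (4 sums) or per plate, category and phase (12 sums), rounded, filtered by filterByExpr and tested in edgeR 4.0.16 (R 4.3.3, limma 3.58.1) by quasi-likelihood with TMM factors and a block for the plate, and p-values were adjusted over all genes tested (Benjamini-Hochberg). The SE is the absolute log2 fold change over the square root of F. The block leaves 1 residual degree of freedom in the 4 sums and 7 in the 12, with common dispersions of 0.00325 and 0.00788. The plate number pairs the sums, since both categories were sorted onto each plate. Deviations of same-numbered sums from the category means correlated at 0.298 over 8372 genes and 0.457 over the 3025 with a mean log2 CPM above 6. The p-values measure the spread between sums that is left after the plate block and the other terms, estimated with help from all genes. They cover neither the spread between plates nor that between lines, since all sums come from 2 plates of 1 line. The members and lists were chosen with earlier results of these data known. Named are *Chst2*, every called member, the 2 members of each role with most counts and the one with the largest change, and called genes of the 5 other lists. Of the 41 members read, 21 overlap another gene of GENCODE M21, and 5 (*Chpf2*, *Ext2*, *Ndst1*, *Gpc1*, *Gpc2*) a protein-coding one, so their counts are less certain. On simulated data with 194 changed genes among those tested, the test of high against low recovered 61.1% of genes changed by 1 on the log2 scale and 18.2% of those changed by 0.5, with 6 false calls among 8103 genes. The simulated counts had the same common dispersion for every gene and no plate effect, so these figures need not hold for the real sums. The alternatives were DESeq2 1.42.0, no block, library size only, no filter, thinned cells, subsets of cells and left-out sums or plates. Computations used Python 3.11.15, numpy 2.4.6, pandas 2.3.3 and scipy 1.17.1.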

Additional observations from a re-analysis of the deposited data

How the results depend on the processing

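The number of members called between categories was 2 with the 12 sums and without a filter, and 3 with the library size only. It was 1 in thinned cells and 1 under 20% mitochondrial counts, and 0 without the replicate block (3 members under an unadjusted p of 0.05), in DESeq2 (1), in G1 cells (3) and with each of the 4 sums left out (1 to 3). The log2 fold change of *Chst2* lay between 0.40 and 0.92 over 14 alternatives and was called in 5 of 12 with a test. It was not called without the replicate block (0.54), in DESeq2 (0.55), in G1 cells (0.40) or with a sum left out (0.50 to 0.59, and 0.45 to 0.63 with 1 plate left out, untested). The median of the tested members was 0.26 with the 12 sums and 0.21 in thinned cells, where 21 members could be tested, and 0.02 to 0.20 with a sum left out. With a sum left out there was no block, and its partner alone stood for the category, on the assumption of an equal spread. In S phase, 7 calls became 3 without the block, 1 in DESeq2, 2 with the library size only, 4 without a filter, 2 in thinned cells, 2 with 6 sums, and 2 each in low and high cells alone. With plate 1 left out the count was 0 (3 under an unadjusted p of 0.05), and with plate 2 left out it was 3. Over all genes, 1000 of 5762 were called in S phase. This became 731 of 5762 without the block, 465 of 11460 in DESeq2 and 314 of 2226 in thinned cells. It was 372 of 5491 with plate 1 left out and 499 of 6007 with plate 2 left out. In G2/M phase, 7 calls became 4 in DESeq2 and in low cells and 3 in high cells, and 4 or 3 with plate 1 or 2 left out. Over all genes, 1257 of 5762 were called in G2/M phase. This became 648 of 11460 in DESeq2, 634 of 5506 in low and 656 of 5650 in high cells. It was 490 of 5491 with plate 1 left out and 729 of 6007 with plate 2 left out. Of the 7 calls in G2/M phase, *Ptprz1* and *Cspg5* held under all 11 alternatives. No called value changed sign. Members with few counts, such as *Chpf2* and *Hs6st2*, had SEs over 0.4, so that differences of their size were not detectable at this depth. The cause of the lost calls was not tested.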
